A study of Mus musculus with 4 samples.

Results

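The proteasome subunit genes were taken as every gene listed in both tables whose symbol starts with Psma, Psmb, Psmc, Psmd or Psme followed by a digit. The rule took 45 of 22481 gene symbols, and 43 of them passed the filter of a mean of at least 1 count per 1000000 (CPM). The study asked which RNAs are bound by FAM172A in brown adipose tissue, by sequencing RNA recovered with an antibody against that protein (IP) or with control immunoglobulin (IgG). 4 mouse libraries formed 2 pairs of 1 IP and 1 IgG library each, and the tissue was brown fat in all 4. The WT4 pair is named in its table and carries no protocol label. The other table names its columns only IP and IgG, and the libraries titled WT and cold, labelled with the cold protocol, belong to it by elimination; it is called the first pair. No age, sex or number of animals is given, and the labels do not state whether separate animals gave the pairs, so a p-value over them measures only the spread between these samples, which may be technical.

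The proteasome is the protease complex that degrades proteins tagged with ubiquitin. Its 20S core is a barrel of outer alpha rings, which gate the entrance, and inner beta rings, which hold the proteolytic sites; the 19S particle caps the barrel, with a base whose ATPases unfold the substrate and a lid that removes ubiquitin. In immune cells and after interferon, other catalytic subunits replace the constitutive ones to form the immunoproteasome, and in brown fat the transcription factor NFE2L1 is known to raise proteasome genes in the cold.

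The libraries differed in depth. Fragments numbered 6633649 in the first IP library, 5587286 in its IgG partner, 1631876 in WT4 IP and 360380 in WT4 IgG, so that 3 fragments, the limit that a count of 0 allows, came to 0.455, 0.534, 2.02 and 7.498 CPM in that order. CPM here is the deposited count scaled by the authors within a pair, so that any level set across the pairs rests on separate normalizations, and floors and intervals cover counting error only. All 8 brown adipocyte marker genes had fragments in all 4 libraries, among them Ucp1, which codes for the heat-producing uncoupling protein, with 38953, 32123, 3708 and 527 fragments. In bulk RNA, fewer cells of a type and less RNA per cell cannot be told apart.

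One pair of members is shown by sequence, because reads from these genes are hard to assign to one or the other. Psme2 (chromosome 14, 55587441 to 55591113, minus strand, GRCm38) codes for the beta subunit of the PA28 activator in 11 exons. Psme2b (chromosome 11, 48945354 to 48946190, minus strand) is a copy with 1 exon. Their coding sequences, of 693 and 717 bases, were 94.8% identical over 717 aligned positions, with 13 differing bases and 24 gap positions, and the longest identical run was 264 bases. The stretch of 60 bases with the most differences holds 3, marked by capitals, and covers coding bases 460 to 519 of Psme2 and 484 to 543 of Psme2b.
Psme2: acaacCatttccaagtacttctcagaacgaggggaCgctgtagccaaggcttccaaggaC
Psme2b: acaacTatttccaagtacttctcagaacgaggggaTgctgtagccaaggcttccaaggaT
The values of both genes are therefore uncertain. The same holds for 13 members that share a listed locus with another gene, the other 32 being alone at theirs. It also holds for Psmb5, Psmb6 and Psmb7, which have annotated pseudogenes that carry their names. Pseudogenes under other names were not searched for, so other members may have them too.

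Proteasome genes were widely detected in 3 of the 4 libraries and poorly in the fourth. Of the 45 members, 42 had at least 1 fragment in the first IP library, 42 in the first IgG library, 43 in the WT4 IP library and 23 in the WT4 IgG library. Together they took 0.206% of fragments in the first IP library (95% Wilson interval 0.203 to 0.210), 0.211% in the first IgG library (0.207 to 0.215), 0.167% in the WT4 IP library (0.160 to 0.173) and 0.107% in the WT4 IgG library (0.0969 to 0.118). Among the members, 22 were detected in all 4 libraries, 18 had no fragment in WT4 IgG alone, and 1 was at 0 in all 4. That gene is Psma8, which codes for the alpha subunit of the testis.

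The members at 0 in the WT4 IgG library need to be read against the other genes. Of the 43 members that passed the filter, 20 had 0 fragments there, and 43.0% of the 16217 genes tested did too. In the other libraries the members at 0 numbered 2 in the first IP library, 2 in the first IgG library and 1 in the WT4 IP library, against 30.0%, 20.1% and 3.13% of all genes. Where the mean of the other 3 libraries was at least 20 CPM, 9 of 29 members were at 0 in the WT4 IgG library, and so were 21.7% of the 7153 genes at that level. The 9 were Psma4, Psmb4, Psmb7, Psmc1, Psmc5, Psmc6, Psmd1, Psmd14 and Psme1. By class, 0 of 4 structural beta genes and 0 of 3 chaperone genes had a fragment there, and 7 of 8 lid genes did. These classes also differed in level, and the class counts were not matched for it. At a mean of 5 to 20 CPM in the other 3 libraries, 11 of 13 members were at 0, and so were 54.7% of 4781 genes. Psmb1, Psmb2, Psmb3 and the 3 chaperone genes were among these 11, and no lid gene was.

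**Figure D1:**
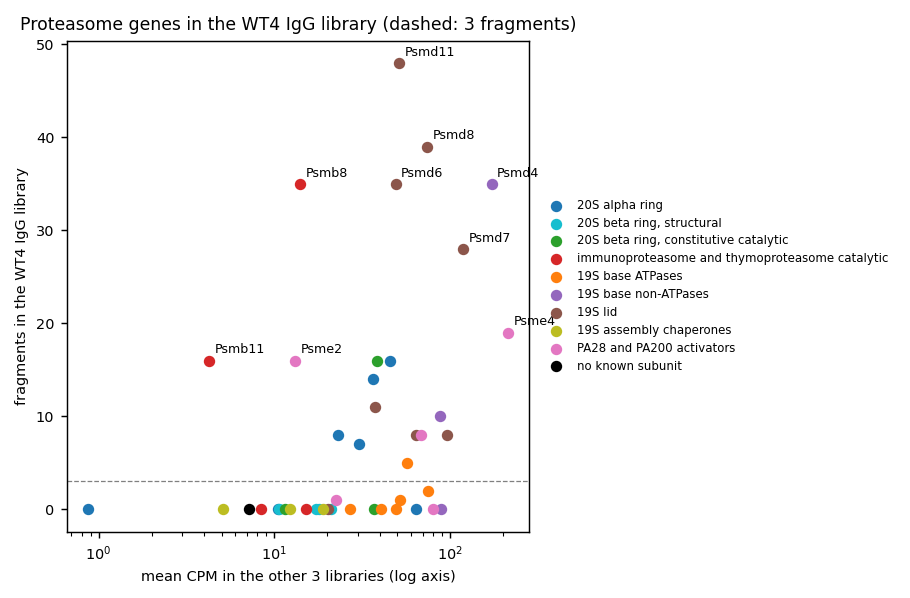
Fragments of each member in the WT4 IgG library (vertical axis) against its mean CPM in the other 3 libraries (horizontal log axis), coloured by subunit class, without Psma8. Psmd11 is highest at 48 fragments, the lid genes spread from 0 (Psmd14) up to that value, and members along the bottom reach means of over 50 CPM elsewhere.

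Levels were compared between genes in FPKM, which is corrected for transcript length. By mean FPKM over the 4 libraries the highest members were Psmd4, Psme1, Psmd6 and Psmd7, whose means were 89.0, 56.1, 53.2 and 47.6. The sum of FPKM over the 14 core genes was 345 in the first IP library, 429 in the first IgG library, 225 in the WT4 IP library and 123 in the WT4 IgG library. Over the 17 genes of the 19S particle it was 709, 631, 437 and 286, higher than that of the core in each of the 4 libraries. Order within the family was not fixed, and Psme2 for example ranked 28th, 33rd, 7th and 1st by FPKM in the 4 libraries. Its WT4 IgG rank rests on 16 fragments, in a library where 22 members were at 0. The values of Psme2 are also uncertain because of its copy Psme2b.

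**Figure D2:**
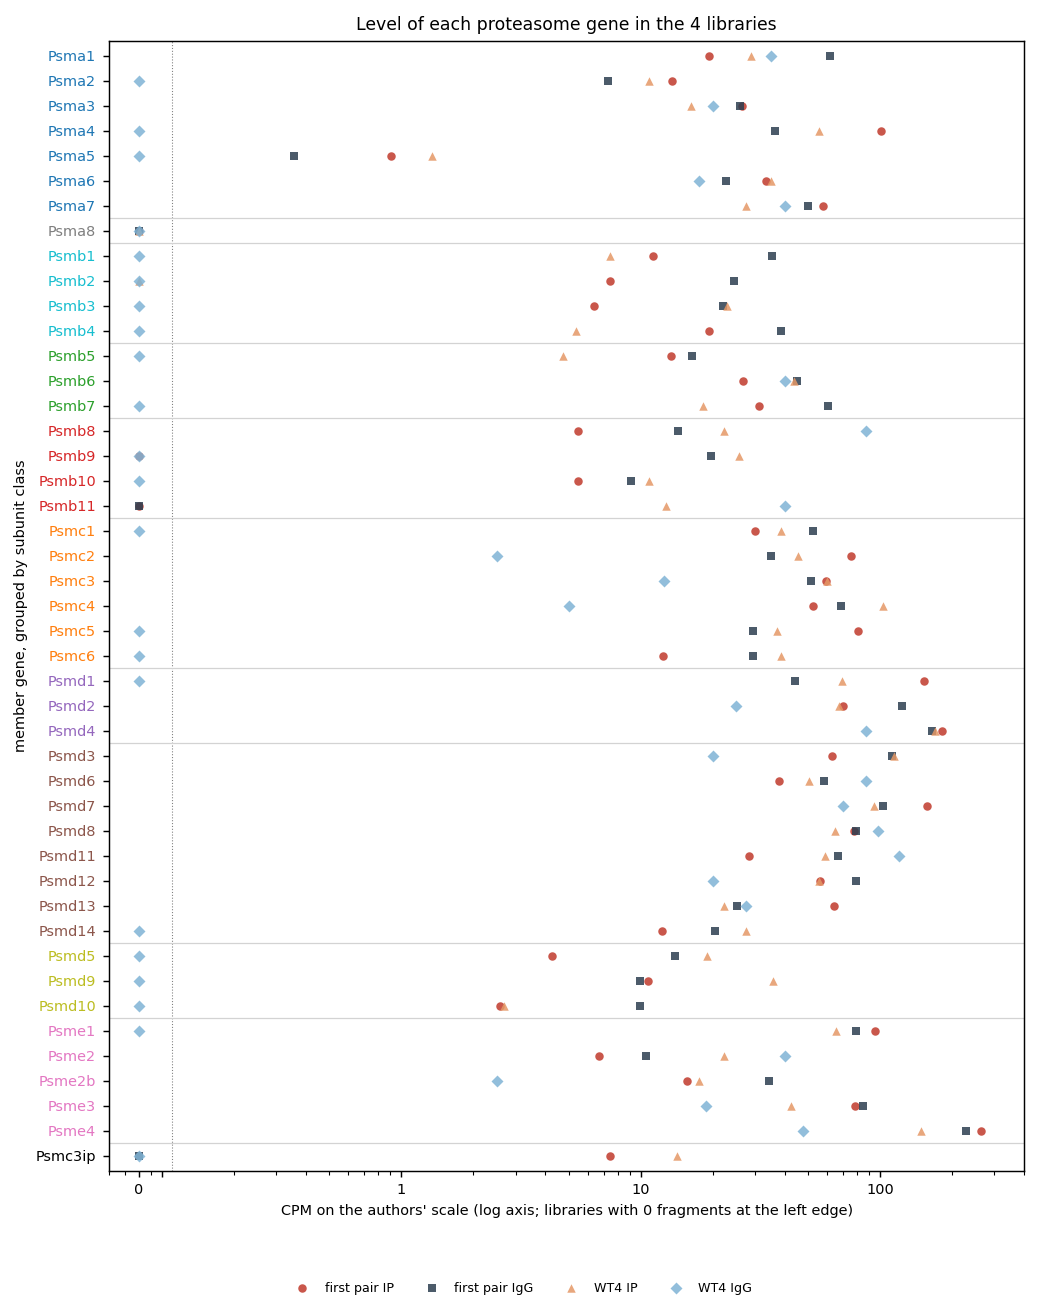
CPM of each of the 45 members (rows, grouped by subunit class) in the 4 libraries, on a log axis with libraries at 0 fragments drawn at the left edge. Psme4 reaches the highest value, 263 CPM in the first IP library, and WT4 IgG points (diamonds) sit at the left edge for 22 members.

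IP and IgG were compared within each pair as the log2 ratio of CPM after adding 1, with 2-fold as the line; 1 library per group allows no test within a pair. In the first pair 6 of 43 members had IP 2-fold or more above IgG, as did 13.3% of all genes, and 11 had it 2-fold or more below, as did 26.9%. In the WT4 pair 28 members were past the line upwards, against 51.6% of all genes, and 3 downwards, against 19.3%. The median log2 ratio of the members was -0.49 in the first pair, where that of all genes was -0.03, and 2.40 in the WT4 pair, where that of all genes was 1.17. With zeros set to 3 fragments, 22 members were past it upwards in the WT4 pair, against 26.8% of all genes, and the members' median was 1.0 against 0.01, a gene at 0 in both libraries counting as 0. In the first pair the 6 upward members were then set against 14.4% of all genes. A gene at 0 in WT4 IgG could pass upwards only with WT4 IP 2-fold above the floor of 7.498 CPM. The median WT4 IP level was 35.0 CPM for the members and 20.2 CPM for all genes tested. No share of all genes was counted at matched level. The WT4 split also moved with the centre: relative to that pair's median of all genes, 23 members were past 2-fold upwards and 12 downwards. The shares of all genes were not counted after centring, so these 2 counts have no background beside them.

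The alpha ring had 1 member with IP 2-fold or more above IgG in both pairs, against 7.19% of all genes. Psma4 (ENSMUSG00000032301, chromosome 9, 54950790 to 54958030, plus strand), an alpha ring subunit, was at 101 CPM in the first IP library, 36.3 in the first IgG library, 55.2 in the WT4 IP library and 0 in the WT4 IgG library, from 666, 204, 82 and 0 fragments. Both IP libraries lay above both IgG libraries. IP stood 2.78-fold above IgG in the first pair and, for WT4, at least 7.37-fold above the IgG floor, and Psma4 shares its locus with AY074887.

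Psma1, another subunit of that ring, went the other way in the first pair. It had 19.2 CPM in the first IP library, 61.4 in the first IgG library, 29.0 in the WT4 IP library and 35.0 in the WT4 IgG library, with log2 ratios of -1.62 and -0.26. Both IgG libraries lay above both IP libraries. Psma5 had 6, 2, 2 and 0 fragments and did not pass the filter; its ratio in the first pair was 2.55 with an interval from 0.457 to 25.9. The other 4 alpha genes, Psma2, Psma3, Psma6 and Psma7, had log2 ratios between 0.03 and 0.80 in the first pair and between -0.52 and 3.56 in the WT4 pair. The value of 3.56 is that of Psma2, with 16 WT4 IP and 0 WT4 IgG fragments. Against the floor its WT4 ratio was at least 1.44-fold.

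Structural beta genes, whose subunits complete the inner rings without an active site, all had less IP than IgG signal in the first pair. Psmb1 had 11.2 CPM in the first IP library, 35.4 in the first IgG library, 7.41 in the WT4 IP library and 0 in the WT4 IgG library. For Psmb2 the values were 7.43, 24.6, 0 and 0 CPM, and Psmb3 had 6.36, 22.1, 22.9 and 0 CPM. The first IgG library was the highest for Psmb1 and Psmb2, whereas for Psmb3 the first IgG and the WT4 IP library were close.

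Psmb4 had 19.2, 38.5, 5.39 and 0 CPM, again with the first IgG library on top. The log2 ratios of these 4 genes in the first pair ran from -1.65 to -0.96. Of the 4, 3 were past 2-fold downwards, against 26.9% of all genes. In the WT4 pair their IgG values were all 0. Psmb3, at 34 WT4 IP fragments, stood at least 3.06-fold above IgG there, while the 11 fragments of Psmb1 and the 8 of Psmb4 came out at 0.988 and 0.719 of the IgG floor. No fold can be given for Psmb2, which was at 0 in both WT4 libraries.

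Constitutive catalytic genes had less IP than IgG signal in the first pair, none past 2-fold, against 26.9% of all genes past it downwards. Psmb5 codes for the subunit with chymotrypsin-like activity and had 88, 92, 7 and 0 fragments, or 13.3, 16.4, 4.72 and 0 CPM. Psmb6, of the caspase-like subunit, had 26.7, 45.05, 43.8 and 40.0 CPM, from 176, 253, 65 and 16 fragments. Psmb7, of the trypsin-like subunit, had 31.1, 60.5, 18.2 and 0 CPM, from 205, 340, 27 and 0 fragments.

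Their log2 ratios in the first pair were -0.28, -0.73 and -0.94. In the WT4 pair Psmb6 had a log2 ratio of 0.13, Psmb7 had IP at least 2.43-fold above IgG, and the 7 WT4 IP fragments of Psmb5 were 0.629 of the floor in IgG. Psmb7 shares its locus with Nek6.

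Immunoproteasome genes were recovered unevenly. Psmb8 (ENSMUSG00000024338, chromosome 17, 34197721 to 34201454, plus strand) replaces Psmb5 in the immunoproteasome. It had 5.46 CPM in the first IP library, 14.2 in the first IgG library, 22.2 in the WT4 IP library and 87.5 in the WT4 IgG library, from 36, 80, 33 and 35 fragments. The IgG library was the higher one in each pair, though the first IgG value lay below the WT4 IP value; the ratios were 0.383 and 0.254.

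Psmb9 (ENSMUSG00000096727, chromosome 17, 34181987 to 34187764, minus strand), the replacement of Psmb6, had 0, 19.6, 25.6 and 0 CPM, from 0, 110, 38 and 0 fragments. IP was at least 43.1-fold below IgG in the first pair but at least 3.41-fold above it in the WT4 pair. Psmb10 replaces Psmb7 and had 5.46, 9.08, 10.8 and 0 CPM, from 36, 51, 16 and 0 fragments, so that its first pair log2 ratio was -0.64 and its WT4 ratio at least 1.44-fold. Each of the 3 shares a listed locus: Psmb8 with Tap2 and Gm15821, Psmb9 with Tap1, and Psmb10 with Lcat and Slc12a4. Psmb9 and Psmb8 lie 9.96 kb apart.

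Psmb11, whose subunit belongs to the thymoproteasome of the thymic cortex, had 19 fragments in the WT4 IP library and 16 in the WT4 IgG library, with 0 in both libraries of the first pair. That is 12.8 and 40.0 CPM, lower in the WT4 IP library with a log2 ratio of -1.57. It lies 3.41 kb from Psmb5 on chromosome 14.

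Per length, the 3 immunoproteasome genes made up a different part of the catalytic sum in each pair. Psmb5, Psmb6 and Psmb7 summed to 70.9 FPKM in the first IP library, 113 in the first IgG library, 61.7 in the WT4 IP library and 47.6 in the WT4 IgG library. For Psmb8, Psmb9 and Psmb10 the sums were 6.26, 19.3, 44.1 and 26.2 FPKM, which is 8.12%, 14.7%, 41.6% and 35.5% of both sums. Both WT4 libraries had the higher part, and in FPKM the IP library did not lie on the same side of its IgG library in the 2 pairs. In fragments, not corrected for length, the part was 13.3% in the first IP library (95% Wilson interval 10.7 to 16.4), 26.0% in the first IgG library (23.3 to 28.9), 46.8% in the WT4 IP library (39.7 to 53.9) and 68.6% in the WT4 IgG library (55.0 to 79.7), lower in IP in both pairs. The order within the WT4 pair thus depended on the unit. The WT4 IgG sums rest on Psmb6 and Psmb8 with 16 and 35 fragments. In the WT4 IP library Psmb9 gave 27.7 of the 44.1 FPKM from 38 fragments, while Psmb8 gave 11.3 from 33. The WT4 IP part in FPKM thus rests largely on Psmb9. For this gene FPKM per CPM was not the same in the 2 tables. Psmb9 had 27.7 FPKM at 25.6 CPM in WT4 IP, but 5.19 FPKM at 19.6 CPM in the first IgG library. The cause was not tested. The tables were normalized separately, so FPKM set across pairs, as in means over the 4 libraries, rests on separate normalizations.

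**Figure D3:**
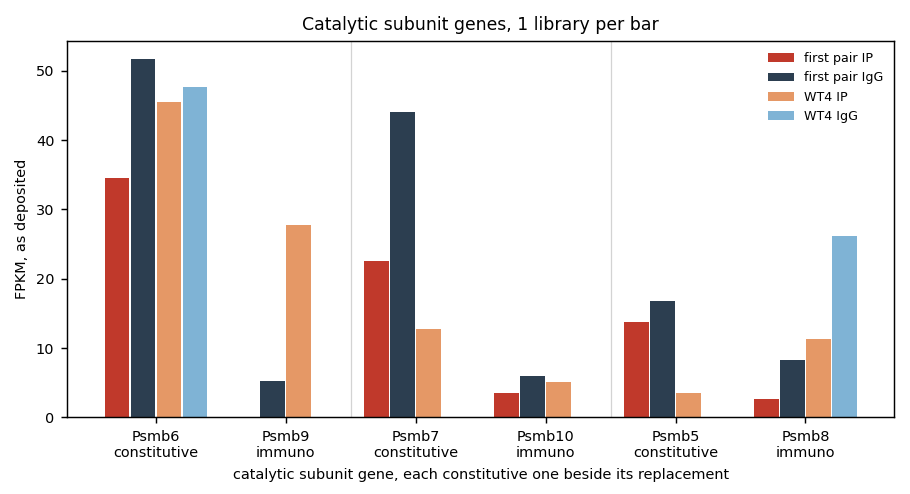
Deposited FPKM of the 6 catalytic genes in the 4 libraries, 1 bar per library, each constitutive gene beside the immunoproteasome gene that replaces it. Psmb6 is present in all 4 libraries at 34.6 to 51.7 FPKM, Psmb9 in 2, and in the WT4 IgG library bars stand for Psmb6 and Psmb8 alone.

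Genes of immune cells were checked beside these values. Of 12 listed leukocyte and antigen presentation genes 10 passed the filter, with 7, 7, 10 and 3 of those detected in the first IP, first IgG, WT4 IP and WT4 IgG libraries and summed levels of 144, 114.8, 124 and 340 CPM. In the first pair 4 of the 10 were past 2-fold upwards and 3 downwards, against 13.3% and 26.9% of all genes. In the WT4 pair 7 were past it upwards and 3 downwards, against 51.6% and 19.3%. Those 7 all had 0 fragments in WT4 IgG. Only Lyz2 and H2-Ab1 among them, at 8.08 and 32.3 CPM in WT4 IP, lay above the WT4 IgG floor of 7.498 CPM. For the rest the upward count rests on the pseudocount. Of the genes that define T cells, Cd3e had 1 fragment in the WT4 IP library and 0 elsewhere, and Cd3g had 35, 0, 2 and 0 fragments. The 3 detected in the WT4 IgG library were Ptprc, Cd74 and Itgam, each higher there than in WT4 IP by CPM. Ptprc had 115, 22, 42 and 75 fragments, Cd74 had 295, 219, 47 and 37, and Itgam had 0, 10, 6 and 24. The 8 interferon-induced partners, such as Tap1 and H2-K1, summed to 374, 712, 887 and 512 CPM, and 4 of them had IP 2-fold or more below IgG in the first pair, against 26.9% of all genes, and 4 above it in the WT4 pair, against 51.6%. Their part in the immunoproteasome values was not tested.

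The ATPases of the 19S base, which unfold the substrate and open the gate, all had WT4 IP values 2-fold or more above WT4 IgG, as had 51.6% of all genes. In the first pair 2 of the 6 were past 2-fold upwards and 1 downwards, against 13.3% and 26.9% of all genes. Psmc2 (ENSMUSG00000028932, chromosome 5, 21785283 to 21803787, plus strand) had 75.8 CPM in the first IP library, 34.9 in the first IgG library, 45.1 in the WT4 IP library and 2.50 in the WT4 IgG library, from 500, 196, 67 and 1 fragments. Psmc5 (ENSMUSG00000020708, chromosome 11, 106256154 to 106263120, plus strand) had 80.5, 29.4, 37.1 and 0 CPM, from 531, 165, 55 and 0 fragments.

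For Psmc2 and Psmc5 both IP libraries lay above both IgG libraries, and each gene is alone at its listed locus. Psmc2 had a first pair ratio of 2.17 and a WT4 ratio of 18.1, the latter with a counting interval from 3.13 to 724. For Psmc5 it was 2.74 in the first pair, with a lower bound of 4.94-fold in the WT4 pair.

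Psmc6 showed the opposite order in the first pair, with 12.4 and 29.6 CPM in IP and IgG, and 38.4 and 0 CPM in the WT4 pair. Psmc1 had 30.0, 52.2, 38.4 and 0 CPM. WT4 IP stood at least 5.12-fold above WT4 IgG for both, on 57 IP fragments each, while in the first pair IgG was the higher library. Psmc3 and Psmc4 had 5 and 2 WT4 IgG fragments, for ratios of 4.80 and 20.6, the latter with an interval from 5.61 to 172, and log2 ratios of 0.20 and -0.38 in the first pair.

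Among the non-ATPase subunits of the base, the scaffold gene Psmd1 stood highest by ratio. Psmd1 (ENSMUSG00000026229, chromosome 1, 86064387 to 86139151, plus strand) had 152 CPM in the first IP library, 44.2 in the first IgG library, 69.4 in the WT4 IP library and 0 in the WT4 IgG library, from 1002, 248, 103 and 0 fragments. Both IP libraries exceeded both IgG libraries, 3.44-fold within the first pair and at least 9.25-fold within the WT4 pair. Psmd1 shares its locus with Armc9, Gm21972 and Htr2b.

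The ubiquitin receptors did not show that pattern. Psmd2 had 70.0, 123, 67.4 and 25.0 CPM, with IP under IgG in the first pair but over it in the WT4 pair, at log2 ratios of -0.81 and 1.395. Psmd4 had 182, 164, 170 and 87.5 CPM, from 1200, 923, 252 and 35 fragments, with log2 ratios of 0.15 and 0.95. Its WT4 IgG library was the low one, neither ratio was past 2-fold, and the listed locus of Psmd4 is merged over 33 genes.

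Lid genes were the class with most WT4 IgG fragments. Psmd11 (ENSMUSG00000017428, chromosome 11, 80428615 to 80473248, plus strand), which helps join lid and core, had 28.2 CPM in the first IP library, 66.4 in the first IgG library, 58.6 in the WT4 IP library and 120 in the WT4 IgG library, from 186, 373, 87 and 48 fragments. Both IgG libraries lay above both IP libraries, at ratios of 0.424 and 0.489. With TMM factors and in FPKM it was no longer past 2-fold in the WT4 pair.

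Psmd14, the deubiquitinase of the lid, had 12.3, 20.5, 27.6 and 0 CPM, from 81, 115, 41 and 0 fragments. Its ratio was 0.599 in the first pair, with a lower bound of 3.68 for WT4. Its inactive partner Psmd7 had 157, 103, 93.8 and 70.0 CPM and was higher in IP in both pairs, by 1.52-fold and 1.34-fold. Psmd6, also of the lid, had 37.9, 58.4, 50.5 and 87.5 CPM, and its IgG library was the higher one in each pair.

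Of the remaining lid genes, Psmd13 had a first pair ratio of 2.54 and a WT4 ratio of 0.809. Psmd3, Psmd8 and Psmd12 had log2 ratios between -0.82 and -0.03 in the first pair and between -0.58 and 2.45 in the WT4 pair. No lid gene was past 2-fold upwards in both pairs, against 7.19% of all genes.

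The chaperones that assemble the base, Psmd5, Psmd9 and Psmd10, had few fragments and 0 in the WT4 IgG library. Psmd9 had 10.8, 9.97, 35.7 and 0 CPM and shares its locus with 4 other genes. Psmd10 had 17, 56, 4 and 0 fragments, or 2.58, 9.97, 2.69 and 0 CPM, and its WT4 IP value was under the floor of the WT4 IgG library. Psmd5 had log2 ratios of -1.51 and 4.31, and Psmd10 of -1.62 and 1.89. Psmd9 was close between the libraries of the first pair and reached at least 4.76-fold in WT4.

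The activators, which open the core without the 19S particle, held the member with most fragments in the first pair. Psme4, the PA200 gene, had 263, 227, 148 and 47.5 CPM, from 1733, 1276, 220 and 19 fragments. Psme3, of the nuclear PA28 gamma, had 78.4, 84.7, 42.3 and 18.8 CPM. For both, the libraries of the first pair were close, and WT4 IP was 3.12-fold and 2.25-fold above WT4 IgG.

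Psme1, the PA28 alpha gene, had 95.2, 79.1, 65.3 and 0 CPM, from 628, 444, 97 and 0 fragments. IP exceeded IgG by 1.20-fold in the first pair and by 8.71-fold or more in the WT4 pair, though in FPKM its first pair went the other way, at 72.7 and 105. Its neighbour and partner Psme2, 5.91 kb away, had 6.67, 10.5, 22.2 and 40.0 CPM, with the IgG library higher in each pair. Psme2b had 15.6, 34.4, 17.5 and 2.50 CPM, the reverse of Psme2 in the WT4 pair.

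Psmc3ip carries a member's name but codes for a meiotic recombination factor and no known subunit. It had 49, 0, 21 and 0 fragments (chromosome 11, 101091823 to 101095436, minus strand, sharing its locus with Mlx). Both IgG libraries were at 0, and IP exceeded the floor by 13.9-fold in the first pair and 1.89-fold in the WT4 pair, both lower bounds.

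Set side by side, 5 members had IP 2-fold or more above IgG in both pairs, against 7.19% of all genes, and 2 had it below in both, against 5.25%. With zeros set to 3 fragments, 4 of the 5 were left, without Psmc3ip, against 3.14% of all genes. The higher were Psma4, Psmc2, Psmc3ip, Psmc5 and Psmd1, and the lower Psmb8 and Psmd11. A further 7 were past 2-fold in opposite directions, against 17.3% of all genes. These are 11.6%, 4.65% and 16.3% of the 43 members, and nothing particular to the family is read from them.

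**Figure D4:**
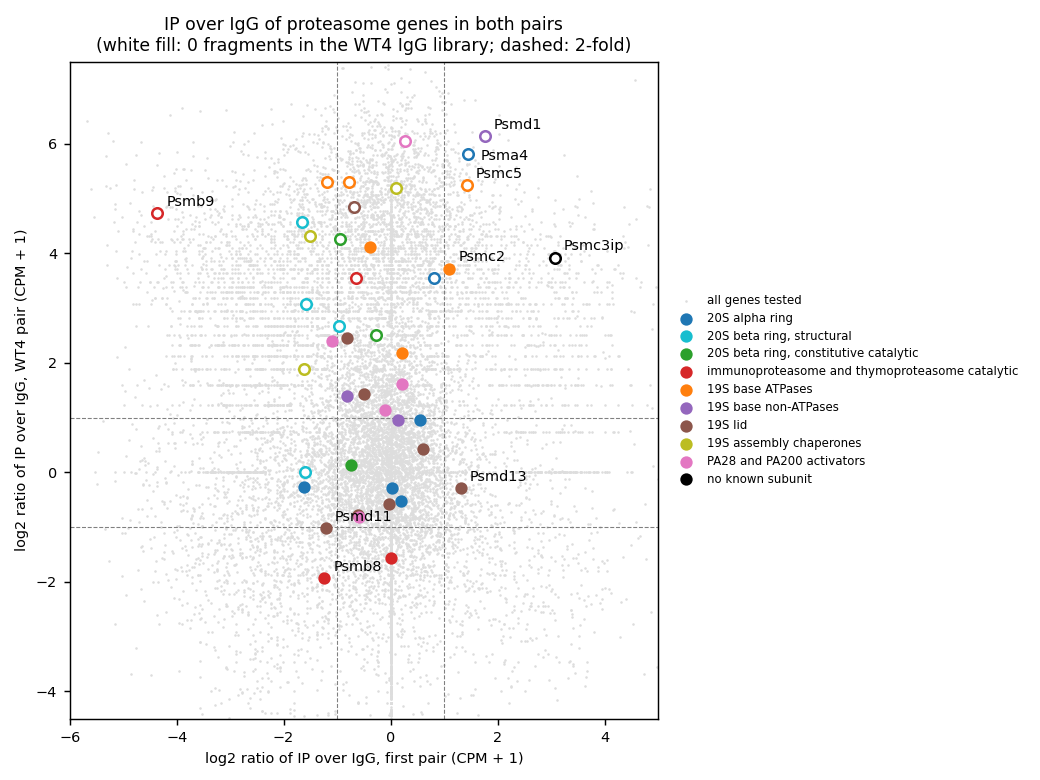
Log2 ratio of IP over IgG in the first pair (horizontal) and the WT4 pair (vertical) for 43 members, coloured by class, over all 16217 genes tested in grey; axes end short of the most extreme grey points. White-filled members had 0 fragments in the WT4 IgG library and lie from 0 to 6.14 on the vertical axis, with Psmd1 highest and Psmb9 farthest left at -4.36.

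With both pairs in the fit and the pair as a block, the quasi-likelihood test of edgeR called 0 members at a Benjamini-Hochberg adjusted p under 0.05, and 1 of all genes, which is 0.00617%. At an unadjusted p under 0.05, edgeR took 1 member, Psmd1, and 1.45% of all genes. Psmd1 had a fitted log2 fold change of 3.31, unadjusted p = 0.00871 and adjusted p = 1, with IP above IgG in both pairs. DESeq2 and limma, run as alternatives, also called 0 members, with 3 members at an unadjusted p under 0.05 in DESeq2, 2 in limma on CPM and 5 in limma on FPKM, against 3.76%, 1.36% and 3.81% of all genes. A fitted value for a gene at 0 in a library depends on the prior count.

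The direction also depended on the unit for some members. Among members with fragments in both libraries of a pair, the deposited FPKM and the counts pointed in opposite directions for 5 of 41 in the first pair, Psma3, Psmd2, Psmd14, Psme1 and Psme2. In the WT4 pair this was so for 5 of 23, Psma3, Psma7, Psmb6, Psmd2 and Psmd13. None of the 7 members past 2-fold the same way in both pairs was among them, but not all could be. Psma4, Psmc5 and Psmd1 had 0 fragments in the WT4 IgG library, so only their first pair was checked. Psmc3ip had 0 in both IgG libraries and was checked in neither pair. For Psmd11, counts and FPKM differed by over 2-fold in the first pair, in the same direction.

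Other genes of the pathway, from a list of 31 of which 30 passed the filter, were counted the same way. In the first pair 4 were past 2-fold upwards and 6 downwards, against 13.3% and 26.9% of all genes. In the WT4 pair 14 were past it upwards and 4 downwards, against 51.6% and 19.3%. Their median log2 ratios were -0.05 and 0.75, where those of all genes were -0.03 and 1.17. edgeR called 0 of them, and 1 had an unadjusted p under 0.05. Nfe2l1, the transcription factor gene, had 1442, 708, 577 and 472 CPM, from 9513, 3978, 856 and 189 fragments, and was higher in IP in both pairs with log2 ratios of 1.02 and 0.29.

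Adrm1, a ubiquitin receptor gene of the 19S particle, had 677, 380, 121 and 0 fragments. Psmf1, of a proteasome inhibitor, had 265, 81, 36 and 0 fragments and was past 2-fold upwards in both pairs, as was the ubiquitin fusion gene Rps27a with 127, 47, 66 and 0. Both were at 0 in the WT4 IgG library. Pomp, of the core's maturation chaperone, had 45, 174, 22 and 0 fragments, lower in IP in the first pair. Past 2-fold downwards in both pairs were the assembly gene Psmg4, with 0, 111, 3 and 7 fragments, and the shuttle gene Ubqln2, with 12, 181, 16 and 14. The WT4 direction of Psmg4 rests on 3 and 7 fragments. Of the 30 tested, 2 were thus higher in both pairs, against 7.19% of all genes, and 2 lower, against 5.25%. Nothing particular to the pathway is read from them.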

How the data were processed

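RNA immunoprecipitation sequencing gave 2 tables, 1 per pair. The tools named are Cufflinks, Cuffdiff, HISAT2 and cutadapt 1.9.3 on mm10, per the submitters' processing notes, which give them no role or order. The annotation release and the use of strand in counting are not given in the sources used here, although directional libraries were made per the labels' protocols. The authors deposited estimated counts scaled within a pair, and FPKM in separate columns. These deposited expected counts rose in steps of a fixed size per library (0.926, 1.09, 0.731 and 2.71 in the first IP, first IgG, WT4 IP and WT4 IgG columns). Division by the step gave fragments, whole to within 0.05 for 94.5% to 97.8% of the nonzero values, and these were rounded. CPM is the deposited count divided by the mean total of its pair and multiplied by 1000000. Rows of 1 symbol were summed, the filter was a mean of at least 1 CPM over the 4 libraries, and ratios were taken after adding 1. Total fragments per library ranged from 360380 to 6633649.

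The main test was edgeR 4.0.16 (R 4.3.3) with quasi-likelihood fits, library sizes from the authors' scaling, the pair as a block and Benjamini-Hochberg adjustment over 16217 genes. It left 1 residual degree of freedom, and the fitted prior was infinite, so that the spread was pooled over genes. DESeq2 1.42.0 and limma 3.58.1 were alternatives. The pairing comes from titles and tables, since the labels carry no replicate numbers, and with 2 pairs it was not checked by correlation. Procedures were tested on simulated data. Against a library at 0 the fold is a bound at 3 fragments per library, and ratios with 1 to 3 fragments carry exact counting intervals of 95%.

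Values in all 4 libraries were given for the catalytic genes, Psmd14, the ubiquitin receptors, the activators, members past 2-fold the same way in both pairs, the 4 highest by FPKM, the 4 lowest by CPM, the 4 highest and lowest by mean ratio, and members at 0 in 1 library and at least 20 CPM in another. Psmd13 and the distances between neighbouring genes were chosen after their values were seen. The value of 1 listed marker gene is not reported here. Members and lists were chosen with earlier results of these data known. Coordinates (1-based), pseudogenes and the coding sequences of Psme2 and Psme2b come from GENCODE vM21 on GRCm38, the assembly mm10 names, matched by Ensembl identifier for all 45 members.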

Additional observations from a re-analysis of the deposited data

Results flagged for a closer look

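After adding 1 to CPM, 7 members were past 2-fold in opposite directions in the 2 pairs. They were 16.3% of those tested, against 17.3% of all genes. Each had IP below IgG in the first pair and above it in the WT4 pair. Of all genes, 26.9% were past 2-fold downwards in the first pair and 51.6% upwards in the WT4 pair. The log2 ratio in the WT4 pair exceeded that in the first pair by 4.65 for Psmb1, 6.23 for Psmb3, 9.10 for Psmb9, 6.49 for Psmc6, 5.82 for Psmd5, 3.503 for Psmd10 and 3.49 for Psme2b. With 1 library per group the difference was not tested. Of the 7, Psme2b had 1 fragment in the WT4 IgG library and the others 0. The WT4 direction rests on the pseudocount for 2 of them: against a floor of 3 fragments in WT4 IgG, the WT4 IP value was 0.359 for Psmd10 and 0.988 for Psmb1, so that with zeros set to 3 fragments Psmd10 fell among the members lower in both pairs.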

How the results depend on the processing

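Within pairs, the members' median log2 ratio kept its sign under each alternative, from -0.60 to -0.30 (first pair) and from 1.0 to 2.76 (WT4 pair). Scaling moved the WT4 median of all genes from 1.17 to 0.90 with total fragments, 1.35 with TMM and 0 by centring. The 3 members lower in the WT4 pair became 12 after centring and 5 with total fragments. The 2 lower in both pairs became 4 after centring, 1 with TMM factors, 1 in FPKM and 0 with a pseudocount of 10, under which the 11 lower in the first pair became 4 and the 5 higher in both became 3. Over the 30 tested members that share no locus, 2 were higher in the first pair, 18 were in WT4 and 2 in both, and 1 was lower in both. Zeros set to 3 fragments, an alternative chosen after seeing the data, left 4 higher in both pairs, without Psmc3ip. Shares of all genes past 2-fold were counted again only with zeros set to 3 fragments, and there only upwards. Detection kept within 1.5 times its counts at 3 fragments or at 0.1 FPKM. The 1 gene called by edgeR became 0 with no replicate block for the pair, 3 with DESeq2, 0 with limma on CPM and 0 on FPKM. Leaving out 1 library at a time, fitted without the block because a pair is broken, gave 0 to 7 genes, and 0 members in each; the lone library is assumed to vary like the others, and its pair has no ratio. Without the WT4 IP library 5 genes were called and without the WT4 IgG library 7. The cause of these changes was not tested, beyond the fewer members in the set without shared loci. Depth limits the WT4 IgG library most, where 1 fragment is worth 2.50 CPM.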
